A study of Mus musculus with 2 samples.

Results

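The genes described here are 10 feedback repressors and mRNA decay factors of CD8+ tumor-infiltrating lymphocytes (TIL): Zfp36, Zfp36l1, Zfp36l2, Nfkbia, Tnfaip3, Dusp1, Dusp2, Btg1, Btg2 and Kdm6b. They are 10 of the 32285 genes counted, and each symbol matched 1 gene. The set was chosen by function together with measured values of these same libraries, in which several of its genes had been seen to be higher in obese mice, so the differences between lean and obese mice given below describe the set and are not a test of it.

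CD8+ T cells were taken from B16-F0 melanoma tumors transplanted into male C57BL/6 mice aged 16 weeks, enriched with magnetic beads, sorted on CD8 and captured in droplets for single-cell RNA sequencing. One library came from lean mice fed normal chow and 1 from obese mice fed a western diet from weaning, and how many mice each library pooled is not given in the sources used here. Each unique molecular identifier (UMI) marks 1 captured RNA molecule at the 3′ end of a transcript, so the length of a gene does not enter its level. Cells were kept if mitochondrial genes took under 7.5% of their UMIs and their total lay above 500 and below 50000 UMIs, which gave 2456 lean and 2289 obese cells with 27815785 and 28705830 UMIs. These limits left out 241 of 2697 deposited lean cells and 334 of 2623 deposited obese cells. The study names the same limits and counts all deposited cells as analysed, so the cells used here are fewer.

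The libraries differed in more than diet. The median cell held 7958 UMIs in the lean and 9103 in the obese library, mitochondrial genes took 2.07% and 2.66% of UMIs, and 2 cell barcodes occurred in both libraries. At least 1 of 6 T cell markers had a UMI in 99.7% of lean and 99.6% of obese cells, while CD4 T, B and melanoma markers each summed to under 6 CPM, the counts per 1000000 UMIs, in either library. The NK cell list summed to 76.1 CPM in the lean and 31.0 CPM in the obese library, nearly all of it Klre1, and the myeloid list to 22.4 and 21.8 CPM. Hemoglobin transcripts of red cells had 0 UMIs in the lean and 9193 in the obese library, in 29 cells. With 1 library per group there was no replicate and no test, and every 95% interval covers counting error only. Counting error here takes every UMI as independent, so the spread between cells is left out.

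The products of most of these genes act as brakes in a T cell. Zfp36, Zfp36l1 and Zfp36l2 encode zinc finger proteins that bind AU-rich elements in the 3′ untranslated region (UTR) of cytokine mRNAs and bring in the CCR4-NOT deadenylase, and Btg1 and Btg2 encode antiproliferative adaptors of the same deadenylase. Nfkbia encodes IκBα, which holds NF-kB in the cytoplasm, and Tnfaip3 encodes A20, a ubiquitin-editing enzyme that ends NF-kB signalling. Dusp1 and Dusp2 encode nuclear phosphatases that switch off MAP kinases. Kdm6b encodes JMJD3, a demethylase that removes the repressive H3K27 methyl mark and is induced with inflammatory genes.

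Many of these genes carry in their own mRNA the element that the ZFP36 proteins read. The core site TTATTTATT was searched in the annotated 3′ UTR of 1 principal transcript per gene (GENCODE M21, GRCm38). It was found in 6 of the 10 members and in 7.12% of 20760 genes, or in 6.62% of the 6845 genes that were measured at 10 CPM or more in 1 library and had an annotated 3′ UTR. The shorter core ATTTA was found in all 10 members and in 62.8% of genes, and all 10 had more copies per kilobase than the median gene, at 2.27 to 6.88 against 1.17. The first TTATTTATT of 5 of these genes is shown with its flanks, since it is the feature that they share, and the capitals mark the core site.
Zfp36: atgacgactTTATTTATTgtattaaga
Zfp36l1: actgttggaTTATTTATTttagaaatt
Zfp36l2: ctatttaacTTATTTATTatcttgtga
Nfkbia: gaccacgttTTATTTATTgtgcttttg
Dusp1: agctggtccTTATTTATTtaacacccc

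These sites began at base 589 of the 3′ UTR in Zfp36, 1404 in Zfp36l1, 821 in Zfp36l2, 296 in Nfkbia and 103 in Dusp1, which held a second copy. All 3 genes of the ZFP36 family were among the 6. Btg1, with a 3′ UTR of 4166 bases, had 11 copies of ATTTA and no TTATTTATT, and Dusp2, Btg2 and Kdm6b also had none. A match describes the annotated sequence and is not evidence of binding in these cells.

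The promoters of 8 of the 10 members were held by the RefSeq table used here (GRCm38.p6, 250 bases before to 50 after the start). They were searched on both strands for 4 motifs of factors that respond to stimulation: the kappa B site, the CArG box, the cyclic AMP response element TGACGTCA and the AP-1 site TGANTCA. The 5 promoters below are shown because they hold a motif other than AP-1 alone, and capitals mark every motif found. No motif overlapped another.
Zfp36: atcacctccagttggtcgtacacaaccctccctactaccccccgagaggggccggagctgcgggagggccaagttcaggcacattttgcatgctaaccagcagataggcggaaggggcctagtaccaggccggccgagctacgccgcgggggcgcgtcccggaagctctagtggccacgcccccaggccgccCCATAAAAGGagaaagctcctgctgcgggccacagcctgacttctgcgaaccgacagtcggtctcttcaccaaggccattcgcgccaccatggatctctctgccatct
Nfkbia: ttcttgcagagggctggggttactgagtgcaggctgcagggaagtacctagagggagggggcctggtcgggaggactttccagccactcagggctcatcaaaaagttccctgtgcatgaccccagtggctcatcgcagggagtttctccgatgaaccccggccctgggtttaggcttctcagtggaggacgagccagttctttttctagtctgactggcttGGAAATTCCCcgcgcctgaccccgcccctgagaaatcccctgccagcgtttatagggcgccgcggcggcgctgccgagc
Tnfaip3: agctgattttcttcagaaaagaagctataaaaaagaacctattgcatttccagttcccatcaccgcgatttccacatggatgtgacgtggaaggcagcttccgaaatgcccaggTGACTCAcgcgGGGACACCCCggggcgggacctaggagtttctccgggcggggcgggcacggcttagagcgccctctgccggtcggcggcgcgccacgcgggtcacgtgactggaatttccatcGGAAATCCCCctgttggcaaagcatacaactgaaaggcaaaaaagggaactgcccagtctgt
Dusp1: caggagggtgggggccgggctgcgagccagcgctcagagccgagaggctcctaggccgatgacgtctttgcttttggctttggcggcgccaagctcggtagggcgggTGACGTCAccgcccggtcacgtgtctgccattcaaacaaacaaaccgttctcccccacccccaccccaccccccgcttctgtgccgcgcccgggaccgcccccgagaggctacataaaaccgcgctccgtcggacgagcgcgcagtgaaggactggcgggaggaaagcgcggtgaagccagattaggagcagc
Btg2: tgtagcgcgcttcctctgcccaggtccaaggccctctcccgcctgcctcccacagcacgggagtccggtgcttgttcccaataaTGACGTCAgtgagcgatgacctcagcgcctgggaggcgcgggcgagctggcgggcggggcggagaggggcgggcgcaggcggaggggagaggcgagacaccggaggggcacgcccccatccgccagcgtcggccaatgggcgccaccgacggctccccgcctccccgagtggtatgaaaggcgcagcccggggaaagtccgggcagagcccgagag

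Each of these promoters lies on the minus strand and is printed 5′ to 3′ along its gene. Zfp36 (chr7:28379179-28379478) had a CArG box, the site of serum response factor, 58 bases before the start, a motif held by 1.63% of 32851 promoters. Nfkbia (chr12:55492598-55492897) had a kappa B site 29 bases before the start, and Tnfaip3 (chr10:19015361-19015660) had 2, at 125 and 12 bases, beside an AP-1 site. The kappa B site was held by 4.51% of all promoters and the AP-1 site by 7.81%. Dusp1 (chr17:26508423-26508722) and Btg2 (chr1:134079106-134079405) had the full cyclic AMP response element, at 143 and 166 bases, which 1.79% of promoters held. Of the 3 promoters not printed, Zfp36l1 had 1 AP-1 site, and Dusp2 and Btg1 had none of the 4 motifs in this window. The second Tnfaip3 entry, for a start further downstream, also held none.

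Over all kept cells the 10 genes together held 95372 UMIs, or 0.343% of all UMIs, in the lean library and 124967, or 0.435%, in the obese library. All 10 were higher in CD8+ TIL from obese mice, with the intervals of all 10 above 0, and 4 were at least 1.5-fold higher. The median log2 ratio of obese over lean was 0.50, beside 0.035 over the 7064 genes with at least 10 CPM in 1 library. Of those 7064 genes, 1.66% were at least 1.5-fold higher and 1.32% at least 1.5-fold lower in the obese library, and the interval lay above 0 for 29.6%. Since the set was chosen on this difference, these shares give its scale and nothing further.

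**Figure D1:**
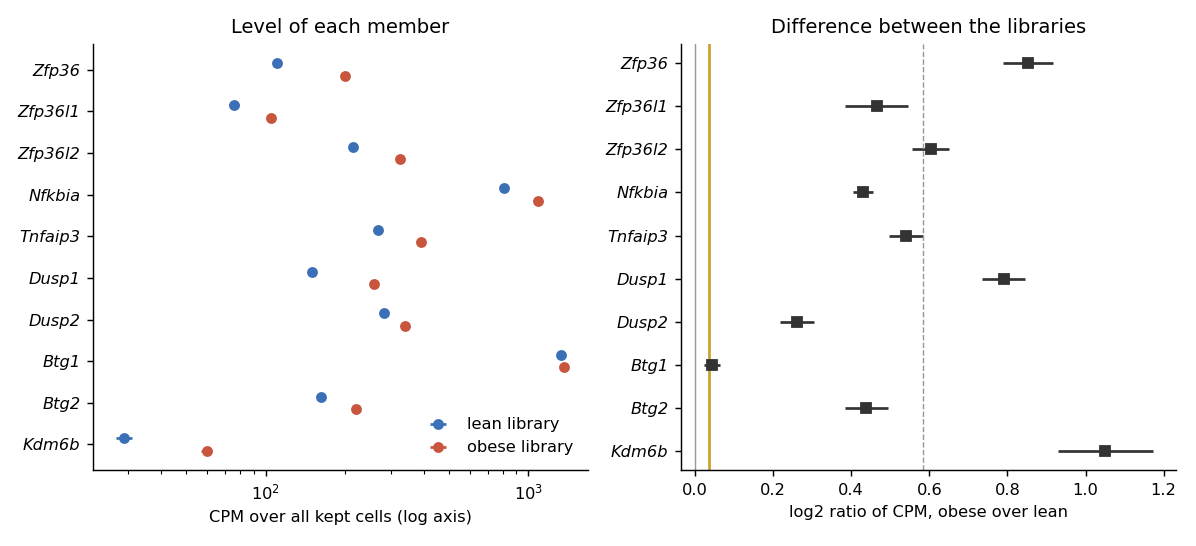
Left, the level of each of the 10 genes over all kept cells of the lean (blue) and obese (red) library in CPM on a log axis. Right, the log2 ratio of obese over lean, where bars are 95% intervals for counting error, the dashed line is a 1.5-fold difference and the yellow line the median of all 7064 genes. Btg1 lies beside the median of all genes and Kdm6b at the far right, at 1.05.

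Among the ZFP36 family, Zfp36 (tristetraprolin; ENSMUSG00000044786, chr7:28376784-28380253, minus strand) had 110 CPM in the lean and 200 CPM in the obese library, a log2 ratio of 0.85 (0.79 to 0.92). Zfp36l2 (ENSMUSG00000045817, chr17:84183931-84187947, minus strand), the most abundant of the 3, had 215 and 326 CPM, a log2 ratio of 0.60 (0.56 to 0.65). Zfp36l1 (ENSMUSG00000021127, chr12:80107754-80113013, minus strand) stood at 76.0 CPM in the lean and 105 CPM in the obese library (log2 ratio 0.46, 0.38 to 0.55). The order of the 3 levels was the same in both libraries, and the log2 ratio between the libraries was highest for Zfp36. Zfp36 had a UMI in 55.4% of lean and 71.5% of obese cells. In cells thinned to 2000 UMIs each, which leaves out 126 lean and 112 obese cells that were shallower, these shares were 24.6% (22.9 to 26.4) and 34.3% (32.3 to 36.3).

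Of the NF-kB inhibitors, Nfkbia (ENSMUSG00000021025, chr12:55489410-55492647, minus strand) had 806 CPM in the lean and 1086 CPM in the obese library, a log2 ratio of 0.43 (0.41 to 0.46). Tnfaip3 (ENSMUSG00000019850, chr10:19000910-19015657, minus strand) stood at 268 and 389 CPM (log2 ratio 0.54), with an interval from 0.50 to 0.58, just below the 1.5-fold line that Zfp36l2 had just passed. Both genes were higher in the obese library in level and in thinned share of cells. The thinned share was 65.7% of lean and 75.1% of obese cells for Nfkbia, and 43.3% and 55.1% for Tnfaip3.

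The 2 phosphatases differed in size of change. Dusp1 (ENSMUSG00000024190, chr17:26505590-26562128, minus strand) had 150 CPM in the lean and 259 CPM in the obese library, a log2 ratio of 0.79 (0.74 to 0.85). Dusp2 (ENSMUSG00000027368, chr2:127336159-127338376, plus strand), also called PAC-1, had 283 and 339 CPM, a log2 ratio of 0.26 (0.22 to 0.30). That ratio was 0.11 with both libraries weighted to the same mix of clusters and 0.081 after thinning to 2000 UMIs. Dusp2 was the more abundant in both libraries, and the gap between the 2 genes was narrower in the obese one. The thinned share of cells with a Dusp2 UMI was 42.1% (40.1 to 44.1) and 45.5% (43.4 to 47.6), while that for Dusp1 was 28.5% and 41.4%.

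The BTG pair held both the most abundant member and the one that differed least. Btg1 (ENSMUSG00000036478, chr10:96617006-96622809, plus strand) had 1329 CPM in the lean and 1369 CPM in the obese library, a log2 ratio of 0.042 (0.022 to 0.063), near the median of all genes. That sign was not stable, since with TMM scaling the log2 ratio of Btg1 was -0.0028 and over all deposited cells it was -0.050. Btg2 (ENSMUSG00000020423, chr1:134075170-134079120, minus strand) had 163 and 221 CPM, a log2 ratio of 0.44 (0.38 to 0.49). A Btg1 UMI was present in 98.9% of lean and 98.4% of obese cells. In the obese library a single cell reached 20 Btg2 UMIs after thinning, against 9 in the lean library.

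Kdm6b (ENSMUSG00000018476, chr11:69398508-69413675, minus strand) was the least abundant member, with 28.8 CPM (26.9 to 30.9) in the lean and 59.7 CPM (56.9 to 62.6) in the obese library. Its log2 ratio of 1.05 (0.93 to 1.17) was the highest of the 10. A Kdm6b UMI was present in 21.8% of lean and 40.7% of obese cells, and in 6.14% and 13.3% after thinning. In cells with a UMI after thinning, the mean was 1.14 and 1.15 UMIs, close to the 1 UMI that is the least such a cell can hold. The antisense gene Kdm6bos, which overlaps it, had 9 and 23 UMIs against 802 and 1715 for Kdm6b. The Btg1 pseudogenes Btg1-ps1 and Btg1-ps2 had 1 UMI in all, and the paralog Zfp36l3 had 0.

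Seen per cell, the median cell thinned to 2000 UMIs had UMIs of 4 of the 10 genes in the lean and 5 in the obese library. Cells with 5 or more of the genes made up 35.4% of lean and 51.5% of obese cells. Fewer UMIs of a gene could reflect fewer cells expressing it or less RNA per cell, and in a gene as sparse as Kdm6b the 2 cannot be told apart. Nfkbia was less sparse, and its thinned share of cells was higher in the obese library. Its mean in thinned cells with a UMI was also higher, at 2.40 UMIs in lean and 2.93 in obese cells.

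Clusters were built without the members and their pathway genes among the variable genes, so that the members did not shape them. Pathway genes that also served as cell type markers, namely Ifng, Ccl3 and Ccl4, were not left out. There were 7 clusters, of which 4 were named from marker genes: cluster 0 was interferon-stimulated-like (Ifit3b, Ifit3, Ifit1), cluster 1 proliferating-like (Pclaf, Birc5, Rrm2), cluster 2 naive- or memory-like (Lef1, Satb1, Tcf7) and cluster 3 effector-like (Gzmd, Gzme, Gzmf). Cluster 0 was mixed: its interferon-stimulated-like markers had a median log2 ratio of 2.21 against all other cells. Markers of memory-effector-like cells, among them Ccl5, had 1.73. Cluster 4 stayed unnamed, with a median of 2626 UMIs and the hemoglobin transcripts at its top. Clusters 5 and 6, the first very shallow and the second dendritic-like, held 90 and 30 cells and are left out of the cluster values below unless named. Cluster 0 took 19.2% of lean and 30.8% of obese cells, and cluster 3 took 25.0% and 13.6%. Over all kept cells the effector-like markers summed to 6055 CPM in the lean and 3361 CPM in the obese library. The marker with the fewest UMIs was Gzme in the lean library, with 1117, and Gzmd in the obese library, with 148. Whether the lean and obese cells of cluster 3 were in the same state was not tested.

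**Figure D2:**
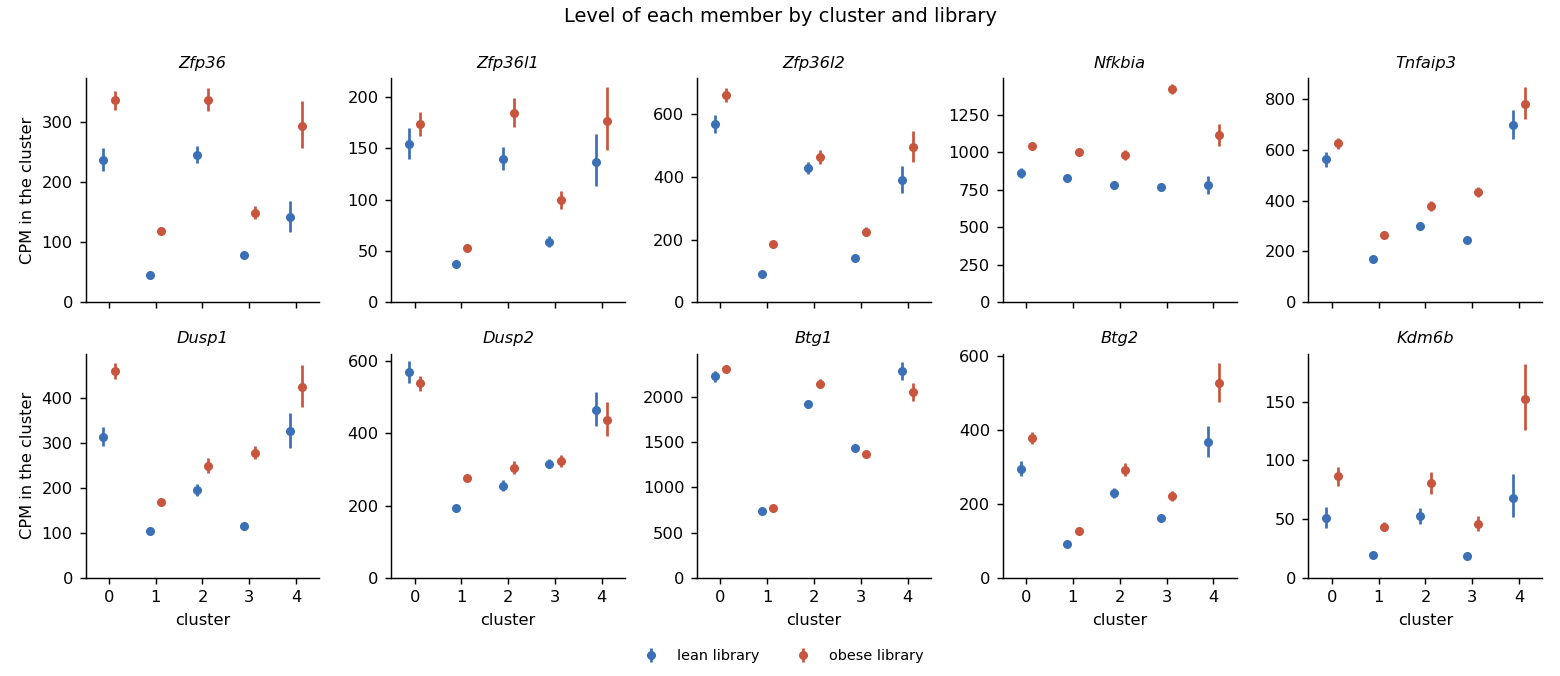
Level in CPM of each of the 10 genes in clusters 0 to 4, with the lean library in blue and the obese in red and bars for the exact 95% Poisson interval. Most genes are lowest in the proliferating-like cluster 1 in both libraries, while Nfkbia stays between 769 and 1420 CPM in every cluster.

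In the lean library 8 of the 10 genes had their lowest level in the proliferating-like cluster, and in the obese library 9 did. How many of all genes were lowest there was not counted, so these counts have no share to stand beside. Zfp36 ran from 45.8 CPM in cluster 1 to 246 CPM in the naive- or memory-like cluster in lean mice, and from 118 to 337 CPM between the same clusters in obese mice. Its levels in clusters 2 and 0 had overlapping intervals in both libraries. Zfp36l2 went from 90.0 CPM in cluster 1 to 567 CPM in cluster 0 in the lean library and from 187 to 661 CPM in the obese library, a 6.31-fold and a 3.54-fold range. Zfp36l1 went from 37.0 to 154 CPM in the lean and from 52.7 to 184 CPM in the obese library. The 3 family members thus shared an order in which clusters 0, 2 and 4 stood above 3, and 3 above 1.

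Counted per cell the order changed, since a proliferating-like cell held a median of 22570 UMIs against 5929 in cluster 0. Btg1 had 740 CPM in cluster 1 and 2229 CPM in cluster 0 of the lean library, but 17.7 and 12.3 UMIs per cell. Zfp36 had 1.09 UMIs per cell in cluster 1 and 1.31 in cluster 0 of lean mice, and 2.87 and 2.45 in obese mice. In CPM 0 of the 10 genes were higher in cluster 1 than in cluster 0, while in UMIs per cell 8 were higher in lean and 9 in obese mice. The same counts over all genes were not made.

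Nfkbia did not follow the other members across states. In lean mice it lay between 769 CPM in cluster 3 and 860 CPM in cluster 0, a 1.12-fold range, with overlapping intervals for every pair of neighbours in the order. In obese mice its highest level moved to the effector-like cluster, at 1420 CPM, with the other 4 clusters between 978 and 1113 CPM. Per cell it had 4.74 UMIs in cluster 0 and 19.8 in cluster 1 of the lean library. Tnfaip3, the other NF-kB inhibitor, ranged 4.07-fold, from 172 CPM in cluster 1 to 699 CPM in the shallow cluster 4, in lean mice.

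The phosphatases had different orders in the lean library and the same order of clusters in the obese one. Dusp2 was highest in cluster 0 in both libraries, at 570 CPM in lean and 539 CPM in obese mice, and lowest in cluster 1, at 192 and 276 CPM. Dusp1 had 314 CPM in cluster 0 and 104 CPM in cluster 1 of lean mice, and its intervals in clusters 1 and 3 overlapped there. Kdm6b and Btg2 were highest in cluster 4, at 68.4 and 367 CPM in lean mice and 152 and 527 CPM in obese mice. For Kdm6b in lean mice this rested on 58 UMIs, and its interval overlapped those of clusters 2 and 0. Cells of cluster 4 were also the shallowest of the 5 clusters and highest in mitochondrial UMIs, with 4.04% and 4.85%.

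Between naive- or memory-like and effector-like cells the direction of some members depended on the library. In lean mice 9 of the 10 genes had the higher level in the naive- or memory-like cells, and in obese mice 6 did. Dusp2 was lower there in both libraries, at 255 against 316 CPM in lean mice and at 304 against 324 CPM in obese mice, where the intervals overlapped. Nfkbia had 780 and 769 CPM in lean mice, with overlapping intervals, and 978 and 1420 CPM in obese mice. Tnfaip3 was higher in the naive- or memory-like cells of lean mice, at 299 against 247 CPM, and lower in those of obese mice, at 379 against 434 CPM. Dusp1 had 196 and 114 CPM in lean mice, and 249 and 279 CPM, with overlapping intervals, in obese mice. The other 6 were higher in the naive- or memory-like cells of both libraries. With the libraries pooled 8 of the 10 were higher there, a count that was also 8 under each of 4 other clusterings. The share of all genes higher in the naive- or memory-like cells was not counted.

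Within the clusters the median difference between the libraries was largest in effector-like cells. There the 10 genes had a median of 0.78 for the log2 ratio, and 7 of 10 were at least 1.5-fold higher in the obese library, beside 6.34% of the 6989 genes measured in that cluster. Dusp1 went from 114 to 279 CPM, a log2 ratio of 1.29 (1.17 to 1.41), and Kdm6b from 18.4 to 45.9 CPM, a ratio of 1.32 (1.01 to 1.63). Nfkbia went from 769 to 1420 CPM, a ratio of 0.89 (0.84 to 0.94), and Tnfaip3 from 247 to 434 CPM, a ratio of 0.82 (0.73 to 0.90). All 4 were higher in the obese library, by more than the counting error. Zfp36, Zfp36l1 and Zfp36l2 had ratios of 0.92, 0.75 and 0.68. Dusp2 had 316 and 324 CPM, with an interval from -0.057 to 0.13 that included 0.

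In the proliferating-like cluster the median was 0.58, and 5 of 10 genes passed 1.5-fold, beside 2.12% of genes. The highest log2 ratio was that of Zfp36, which went from 45.8 to 118 CPM, at 1.37 (1.23 to 1.51). Kdm6b came next at 1.20, before Zfp36l2, which went from 90.0 to 187 CPM with a ratio of 1.06 (0.95 to 1.16). Dusp1 and Tnfaip3 followed at 0.71 and 0.63. This was the cluster where Dusp2 differed most, at 0.52 (0.45 to 0.60). Nfkbia differed least here, at 0.27 (0.23 to 0.31), and in cluster 0, also at 0.27 (0.20 to 0.35).

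The other states showed smaller gaps. In the interferon-stimulated-like cluster the median was 0.25, and 1 gene, Kdm6b, passed 1.5-fold at 0.76 (0.47 to 1.05), beside 3.68% of genes. Naive- or memory-like cells had a median of 0.34, and again Kdm6b alone passed, at 0.62 (0.37 to 0.88), beside 3.81% of genes. In the shallow cluster 4 the median was 0.38 and 2 genes passed, Kdm6b at 1.15 and Zfp36 at 1.05, beside 12.7% of genes. Zfp36l2 had 428 and 464 CPM in naive- or memory-like cells, a ratio of 0.12 (0.020 to 0.21). Whether the clusters differed from each other in these ratios was not tested, because each holds 1 library per group.

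**Figure D3:**
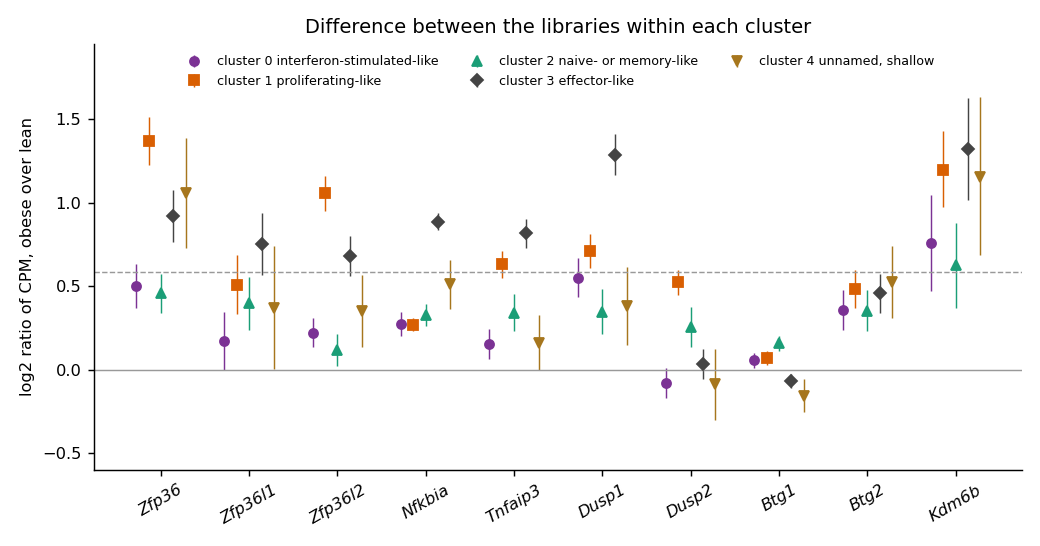
The log2 ratio of CPM of obese over lean mice for each of the 10 genes within clusters 0 to 4, with bars for the exact 95% interval of counting error. The solid line is no difference and the dashed line 1.5-fold. Kdm6b lies above the dashed line in every cluster, while Btg1 lies between -0.16 and 0.16.

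Kdm6b, Zfp36, Zfp36l2, Nfkbia, Dusp1 and Btg2 had intervals above 0 in all 5 clusters. Zfp36l1 and Tnfaip3 did in 4, Btg1 in 3 and Dusp2 in 2, and Btg1 lay below 0 in the other 2 clusters. The share of all genes with an interval above 0 was not counted within clusters. Over all kept cells it was 29.6%. Weighting both libraries to the same mix of clusters gave a median log2 ratio of 0.38 in place of 0.50, and 3 genes past 1.5-fold in place of 4, with Zfp36l2 at 0.35. With that mix 1.55% of all genes were past 1.5-fold.

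Across cells the members moved together weakly. Pearson r of log2(1 + UMIs per 10000) was taken over the cells of each library and averaged over both. The median of the 45 pairs was 0.15, from -0.0065 to 0.34, and 38 pairs were above 0.1. Over 21915510 pairs of 6621 genes with a UMI in at least 10% of cells of each library, the median was 0.015 and 5.47% were above 0.1. Cells of 1 library share its handling and depth, and these values carry no p.

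**Figure D4:**
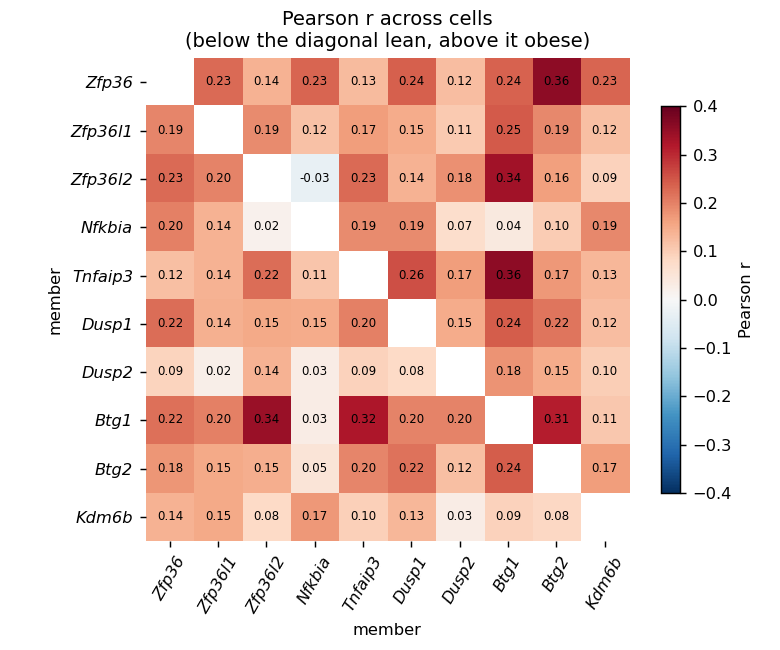
Pearson r of log2(1 + UMIs per 10000) between each pair of the 10 genes, over 2456 lean cells below the diagonal and 2289 obese cells above it. Zfp36 with Btg2 and Btg1 with Tnfaip3, both at 0.36 in obese cells, are the darkest squares, and Nfkbia with Zfp36l2 the palest.

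Averaged over the libraries, the pairs with the highest r joined Btg1 to Tnfaip3 (0.32 in lean and 0.36 in obese cells) and to Zfp36l2 (0.34 and 0.34). Zfp36 and Btg2 had r of 0.18 in lean and 0.36 in obese cells, a gap of which no test was made. Zfp36 and Dusp1, both immediate early genes, had 0.22 and 0.24. The r of Nfkbia ran from -0.0065 with Zfp36l2 to 0.22 with Zfp36, and the highest r of Dusp2 and of Kdm6b was 0.19. Within clusters, which here took in the 63 obese cells of cluster 5, the median was 0.13 and 33 pairs were above 0.1. After thinning to 2000 UMIs the median was 0.089. Neither setting was applied to all pairs of genes, so these values have no background to stand beside. The log of a cell's UMIs had an r of -0.38 in lean and -0.35 in obese cells with Btg1, and of 0.18 and 0.10 with Nfkbia. That r was negative in both libraries for every member other than Nfkbia, for example -0.29 and -0.26 with Tnfaip3. For UMIs after thinning, against the log of the cell's full total, it was -0.0044 in lean and -0.0086 in obese cells with Nfkbia. With Btg1 it was then -0.47 and -0.48.

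The genes most like the members were mostly immediate early genes and one abundant nuclear RNA. Junb, an AP-1 subunit, was the closest non-member to Zfp36 (r = 0.39), Zfp36l1 (0.26), Dusp1 (0.32), Btg2 (0.32) and Kdm6b (0.20). It was second for Tnfaip3 (0.28), and took the third place for Nfkbia (0.25) and Btg1 (0.37). Fos was second for Zfp36 (0.37) and Dusp1 (0.31) and took the third place for Btg2 (0.30), as Fosb did for Dusp1 (0.26). Pim1, which encodes a growth kinase, took the third place for Zfp36 (0.29) and was second for Kdm6b (0.17). The nuclear RNA Malat1 was first for Btg1 (0.63), Zfp36l2 (0.38) and Tnfaip3 (0.34), and second for Zfp36l1 (0.23) and Btg2 (0.31). Pnrc1 was second for Btg1 (0.37) and took the third place for Tnfaip3 (0.27).

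Some members had other neighbours. Nfkbia was closest to Gadd45b (0.37), a stress gene, and to Pim1 (0.36). Zfp36l2 was followed by Gpr183 (0.31) and Arl4c (0.31), and Zfp36l1 by Emb (0.23). Dusp2 was closest to the chemokine gene Ccl5 (0.19), H2-K1 (0.19) and Ms4a4b (0.18), and Slc38a2 took the third place for Kdm6b (0.16). Among 6611 other genes, the best member partner of Tnfaip3 ranked 1 and that of Zfp36 ranked 8.

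The other genes of these pathways showed which parts differed with the members. Their ratios are over all kept cells, and the libraries differed in their mix of clusters. Of the AP-1 and other immediate early genes, 7 of 14 measured were at least 1.5-fold higher in the obese library and 0 were 1.5-fold lower, with a median log2 ratio of 0.59. Within clusters 0 to 4 the median of this list ran from 0.35 to 0.77. Junb went from 1039 to 1848 CPM (log2 ratio 0.83), Fos from 315 to 500 CPM (0.67) and Nr4a1 from 27.6 to 47.4 CPM (0.78), while Jund had 1345 and 1245 CPM. These genes, which handling of tissue can also induce, moved with the members, as did Hspa1b at 7.26 and 24.6 CPM (1.76) and Hspa1a at 10.6 and 19.0 CPM (0.84) among heat shock genes. Of 11 measured heat shock genes 2 were 1.5-fold higher and the median was 0.15. Their part in the result was not tested.

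The NF-kB list gave 0 of 19 measured genes past 1.5-fold in either direction, with a median of 0.24. Within clusters its median ran from 0.0080 in cluster 0 to 0.45 in cluster 3. Rel went from 81.7 to 111 CPM (0.44), and Nfkbiz, an atypical inhibitor, from 42.7 to 61.8 CPM (0.53). Bcl3 was lower, at 18.5 and 14.2 CPM (-0.38). So were the most abundant genes of the list, Bcl2a1b, at 402 and 323 CPM (-0.32), and Bcl2a1d, at 270 and 212 CPM (-0.35). Of the 19 genes, 12 had intervals above 0 and 5 below, beside 29.6% and 19.2% of all genes. The list summed to 1443 CPM in the lean and 1455 CPM in the obese library. Of the MAP kinase phosphatases and Sprouty proteins, 0 of 7 passed, with Dusp5 at 104 and 139 CPM (0.43) and Spry2 at 34.0 and 26.8 CPM (-0.35). The median there was 0.27.

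The machinery that the decay factors recruit differed little in its medians. Of the CCR4-NOT, other deadenylase and poly(A)-binding protein genes 0 of 15 passed 1.5-fold, with a median of 0.053. The scaffold Cnot1 had 64.3 and 66.0 CPM. This list ran from -0.18 for Cnot11 to 0.38 for Pabpc1, at 684 and 889 CPM. Pabpc1, the most abundant gene of the list, encodes a poly(A)-binding protein and not a deadenylase. Of the decapping and decay enzymes 0 of 20 passed, with a median of 0.037, and the helicase Ddx6 had 120 and 128 CPM. These ran from -0.18 for Dcp2 to 0.37 for Dcp1b. Both medians lay near the 0.035 of all genes. Of other mRNA-binding regulators 1 of 12 passed, Zc3h12a, which encodes the endonuclease Regnase-1, from 29.3 to 48.4 CPM (0.72), and the median was 0.072. In the BTG and TOB family Tob2 went from 43.0 to 73.5 CPM (0.77) and Tob1 from 26.9 to 38.1 CPM (0.50), while Btg3 had 73.9 and 72.5 CPM. The median of these 3 genes was -0.042 in cluster 0 and 0.85 in cluster 1. Among H3K27 methylation genes 0 of 9 passed. Kdm6a, the other demethylase of the mark, went from 19.1 to 25.9 CPM (0.44), and Ezh2, its methyltransferase, from 75.2 to 97.7 CPM (0.38).

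Transcripts known as ZFP36 family targets went both ways. Of 14 measured, 4 were at least 1.5-fold higher and 2 at least 1.5-fold lower in the obese library, with a median of 0.30. Cxcl10 went from 29.0 to 59.7 CPM (1.04), Ier3 from 21.2 to 41.3 CPM (0.96), Csf2 from 6.22 to 11.7 CPM (0.91) and Il2 from 9.78 to 16.8 CPM (0.78). The chemokine genes Ccl3, from 990 to 611 CPM (-0.70), and Ccl4, from 1705 to 1016 CPM (-0.75), were lower. Tnf had 37.0 and 44.2 CPM (0.26) and Ifng 580 and 525 CPM (-0.14). Ccl3 and Ccl4 were highest in the effector-like cluster 3, which took fewer obese cells. Both belong to the effector-like markers and could be among the variable genes, so their place in that cluster was partly built in. Cxcl10 and Ier3 were highest in cluster 0, which took more obese cells. Within clusters the median of the list ran from 0.012 in cluster 2 to 0.59 in cluster 3. The part of the mix in these ratios was not tested.

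**Figure D5:**
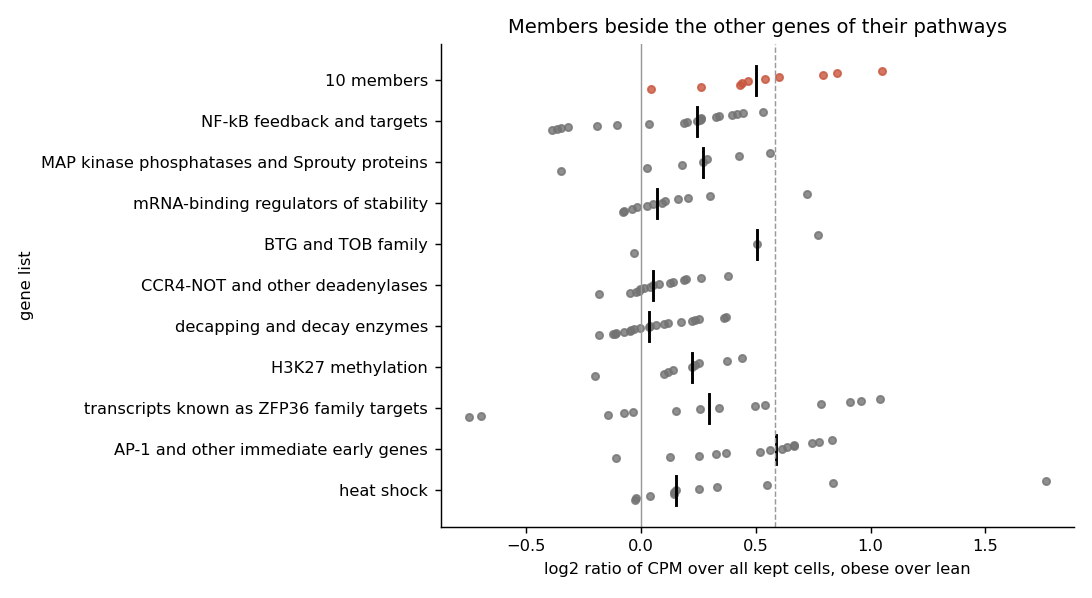
The log2 ratio of CPM of obese over lean mice over all kept cells, with 1 point per measured gene, for the 10 genes (red) and for 10 lists of other genes of their pathways (grey). Black lines are medians, the solid line is no difference and the dashed line 1.5-fold. The immediate early genes have a median of 0.59, and the medians of the deadenylase and decapping lists lie near 0.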

How the data were processed

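The authors counted UMIs per gene and cell and deposited these counts for each library without normalization. The submitters' processing notes name Cell Ranger 6.0.2 and mm10. Cells were filtered by the limits in the study's methods, which left fewer cells than the study analysed, and 4 barcodes occurred in both deposited libraries. UMIs were summed per library and cluster and given as CPM, with exact Poisson intervals for CPM, Clopper-Pearson intervals for shares and conditional binomial intervals for log2 ratios, at 95%, in Python 3.11.15 (scipy 1.17.1). Clusters came from Seurat 5.3.0 (2000 variable genes, 20 principal components). No resolution in steps of 0.05 gave the 6 clusters planned for, so 0.15, with 7, was used. Scrublet in scanpy 1.11.5 marked 2 cells and was taken as not having worked. The steps were tested on simulated counts of 6898 genes for obese against lean over all cells: intervals covered 92.5% of 200 changed ratios. These counts were drawn as Poisson totals, the model that the intervals assume. They held no spread between cells, so the check covers the arithmetic only. Members and lists were chosen with earlier results of these data known. Named are the 10 members, list genes, the 3 genes most like each member and leading cluster genes. The alternatives are other scalings, cell filters, thinning, clusterings, folds and correlation measures. Removal of cells with hemoglobin was added after the data were seen. The target site of 1 member and 1 marker gene are not reported here.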

Additional observations from a re-analysis of the deposited data

Results flagged for a closer look

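Btg1 was flagged because its difference between the libraries went opposite ways in different clusters, each beyond counting error. In cluster 2, naive- or memory-like, it had 1925 and 2147 CPM and a log2 ratio of obese over lean of 0.16 (0.11 to 0.20). It was -0.068 (-0.11 to -0.025) in the effector-like cluster 3, with 1433 and 1367 CPM, and -0.16 (-0.25 to -0.059) in the shallow cluster 4, with 2290 and 2056 CPM. With 1 library per group the difference between clusters was not tested. Over all thinned cells the variance of Btg1 UMIs was 2.38 times their mean in the lean and 2.52 times in the obese library. The intervals leave out such spread between cells, and whether these signs hold with it was not tested.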

How the results depend on the processing

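The median log2 ratio of the 10 members, 0.50, stayed above 0 under all 11 alternatives, from 0.38 to 0.52, and moved beyond its interval under 3: 0.38 with the same mix of clusters, 0.45 as a mean over cells and 0.45 over all deposited cells. Among the 11, 1 left out the cells with the highest 5% of Scrublet scores, though Scrublet was taken as not having worked. That setting also counts among the values for single members below. The number of members at least 1.5-fold higher, 4, was 8 at a ratio of 5 to 4, beside 8.13% of all genes. It was 1 at a fold of 2, beside 0.311%, and 3 or 4 otherwise, beside 1.34% to 3.16%. The median pairwise r of 0.15 fell to 0.089 after thinning to 2000 UMIs. Of the single members, Btg1 changed sign under 2, to -0.0028 with TMM scaling and -0.050 over all deposited cells. The other 9 kept their direction in all 99 values, 29 of which left the interval for counting error. No paired analysis was possible because each group holds 1 library. The libraries' depth limits Kdm6b most, with 802 UMIs in lean mice, and differences between mice, handling and capture cannot be told apart from diet.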

Other observations

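Genes with the site TTATTTATT in the annotated 3′ UTR were looked at beyond the members. Among the 447 such genes with at least 10 CPM in 1 library that were no member, the median log2 ratio of obese over lean was 0.047, and 7 (1.57%) were at least 1.5-fold higher. Among the 6392 measured genes without the site, the median was 0.033 and 90 (1.41%) were at least 1.5-fold higher. Genes with the site had longer 3′ UTRs, at a median of 2294 bases against 885.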
